A study of Mus musculus with 7 samples.

Results

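The genes described here are 5 components of the complement system, taken by name from the 25127 genes counted: complement factor B (Cfb), complement component 3 (C3), properdin (Cfp), the C3a receptor (C3ar1) and the C5a receptor CD88 (C5ar1). They were picked by name, not by a threshold on their values, and all 5 have a row in the count table. They were measured in 4290 single cells of C57/Bl6 mice by CITE-seq, a droplet method that counts each cell's RNA and, by oligo-tagged antibodies, its surface proteins. The cells had been enriched magnetically for CD11b, an integrin of myeloid cells. There were 4 libraries from mice bearing LLC tumors on day 14 (tumor tissue, blood, bone marrow and spleen) and 3 from naive mice with no tumor (blood, bone marrow and spleen). LLC is Lewis lung carcinoma, a transplantable mouse tumor line. No genetic change or drug is named for any group. Each group was 1 library, and how many mice it pooled is not given in the sources used here, so no difference between groups has a replicate check and no p-value is given.

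Complement is a cascade of plasma proteins that marks cells and particles for uptake or lysis. C3 is its hub. In the alternative pathway, factor B joins cleaved C3 to form the enzyme that cleaves more C3, and properdin holds that enzyme together. Cleavage of C3 and C5 releases the anaphylatoxins C3a and C5a, small peptides that act on the G protein-coupled receptors C3aR and C5aR1, both known from monocytes, macrophages and granulocytes. The liver makes most C3 of plasma, whereas myeloid cells are a known source of properdin and make C3 and factor B locally.

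The letters before the gene starts are shown for 3 members because their levels moved apart across these libraries: both receptors were high in tumor tissue and C3 was low there. Each window runs from 250 bases before to 50 bases after the start of the RefSeq gene, build GRCm38.p6, and all lie on the minus strand. The C3ar1 window is chr6:122856108-122856407, the C5ar1 window chr7:16259289-16259588 and the C3 window chr17:57228087-57228386. Capitals mark the matches to 5 motifs, which were picked after the windows had been read.
C3ar1: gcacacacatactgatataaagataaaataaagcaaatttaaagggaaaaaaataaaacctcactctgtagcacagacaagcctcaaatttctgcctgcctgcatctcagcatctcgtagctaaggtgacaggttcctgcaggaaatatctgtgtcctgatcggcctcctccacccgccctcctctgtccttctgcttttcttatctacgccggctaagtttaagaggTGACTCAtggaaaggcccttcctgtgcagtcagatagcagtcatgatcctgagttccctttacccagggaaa
C5ar1: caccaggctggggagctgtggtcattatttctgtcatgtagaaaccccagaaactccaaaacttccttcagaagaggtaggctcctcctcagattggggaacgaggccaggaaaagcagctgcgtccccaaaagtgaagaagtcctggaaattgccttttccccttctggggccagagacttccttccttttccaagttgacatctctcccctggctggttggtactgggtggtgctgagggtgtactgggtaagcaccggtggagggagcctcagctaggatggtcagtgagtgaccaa
C3: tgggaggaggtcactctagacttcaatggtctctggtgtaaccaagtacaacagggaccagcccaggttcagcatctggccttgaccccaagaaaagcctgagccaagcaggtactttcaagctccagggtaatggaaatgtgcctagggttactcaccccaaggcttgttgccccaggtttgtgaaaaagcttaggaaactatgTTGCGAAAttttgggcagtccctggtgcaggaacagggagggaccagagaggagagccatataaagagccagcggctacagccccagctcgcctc
The motifs, searched on both strands, were AP-1 (TGANTCA), C/EBP (TTGCNNAA), the PU.1 core (GAGGAA), the core of the interferon-stimulated response element (GAAANNGAAA) and the gamma-activated site (TTCNNNGAA). No match overlapped another. C3ar1 held 1 AP-1 match, 22 to 16 bases before its start, and 7.81% of the 32851 RefSeq windows of that length held that motif. C3 held 1 C/EBP match, 45 to 38 bases before its start, against 10.8% of all windows with the motif. C5ar1 held no match to any of the 5. Properdin's window held 2 matches to the PU.1 core, a motif in 28.3% of windows. The other motifs were in 3.44% (interferon-stimulated response element core) and 8.3% (gamma-activated site) of windows. A match is a run of letters, not evidence of binding. In all, 4 of the 5 members had a window. In the GENCODE vM21 annotation of GRCm38 all 5 genes lie on the minus strand. Cfb (ENSMUSG00000090231) spans 34856374 to 34862518 and C3 (ENSMUSG00000024164) 57203970 to 57228136 of chromosome 17. Cfp (ENSMUSG00000001128) spans 20925454 to 20931555 of chromosome X, C3ar1 (ENSMUSG00000040552) 122847138 to 122856161 of chromosome 6 and C5ar1 (ENSMUSG00000049130) 16246743 to 16259540 of chromosome 7. The GENCODE start of C5ar1, base 16259540, lies inside the printed window and before the RefSeq start. Most of the C5ar1 letters before the RefSeq start are thus within the GENCODE gene, and the missing match covers little sequence upstream of it. C2, the classical-pathway relative of factor B, lies 86 bases upstream of Cfb on the same strand, but had 11 UMIs in all cells together.

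A UMI, or unique molecular identifier, is 1 counted RNA molecule. Levels are given as CPM, the UMIs of a gene per 1000000 UMIs of all cells of a library or cluster together, with an exact 95% Poisson interval, and shares of cells with an exact 95% Clopper-Pearson interval. These intervals, and the exact binomial intervals of the folds, cover counting error only, and UMIs of 1 cell are not independent. Levels are compared between libraries and clusters, never between genes, since they are not per length. The libraries held 1917 cells (tumor tissue), 354 and 814 cells (tumor-bearing and naive blood), 57 and 153 cells (tumor-bearing and naive bone marrow) and 579 and 416 cells (tumor-bearing and naive spleen). Total UMIs were most in tumor tissue (20844058) and fewest in tumor-bearing bone marrow (617821), and the median cell had between 8841 UMIs (tumor tissue) and 12445 UMIs (tumor-bearing blood). Shares are therefore also given with each cell thinned to 5000 UMIs, which left out 190 shallower cells of tumor tissue and 1 to 14 of the other libraries. Libraries shared 2 cell barcodes, carried by 4 cells. The CD11b transcript Itgam ran from 257 CPM in naive blood to 561 CPM in tumor tissue. Markers of T and NK cells summed to 2.26 CPM at most, those of B cells to 6.57 to 61.7 CPM and those of carcinoma or stromal cells to 17.2 CPM in tumor tissue, against 2.71 to 5.22 CPM elsewhere.

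Tumor tissue stood apart from every other library in all 5 members, with no overlap of intervals. Its cells carried the highest levels of Cfb, Cfp, C3ar1 and C5ar1, and the lowest of C3. A gene counted as measured in a comparison with at least 30 UMIs in both libraries together and 20 CPM in one of them, and a difference was called at 2-fold or more. By this rule 4 of 5 members were higher in tumor tissue than in blood of tumor-bearing mice, where 10.9% of 5648 measured genes were higher and 9.44% lower. These were Cfb, Cfp, C3ar1 and C5ar1, and the same 4 were higher than in tumor-bearing spleen, where 10.7% of 5752 genes were higher and 12% lower. Against tumor-bearing bone marrow C3ar1 and C5ar1 were higher and C3 lower, 2 and 1 members, where 12.2% of 5745 genes were higher and 12.1% lower. All 3 comparisons share the tumor tissue library. The log2 ratio of the median measured gene was −0.13, −0.15 and −0.17 in these comparisons, a shift the members' folds carry too. With median-of-ratios size factors in place of totals, 777 genes were higher and 343 lower than in blood, in place of 614 and 533. The counts were 825 and 439 against spleen, in place of 613 and 689, and 913 and 425 against bone marrow, in place of 701 and 695. No member changed direction with those factors, and Cfb and Cfp then passed 2-fold against bone marrow too.

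The receptor for C3a showed the widest contrast. C3ar1 stood at 310 CPM in tumor tissue (6469 UMIs), against 0.884 and 3.17 CPM in tumor-bearing and naive blood, 4.86 and 11.7 CPM in tumor-bearing and naive bone marrow, and 1.56 and 1.81 CPM in tumor-bearing and naive spleen. Outside tumor tissue the 6 libraries together held few C3ar1 molecules, 3 to 31 UMIs each, and the intervals of neighbours in their order overlapped. The ratio of tumor tissue to tumor-bearing blood was 351 (137 to 1289), to tumor-bearing spleen 198 (104 to 434) and to tumor-bearing bone marrow 63.9 (21.9 to 310). In naive bone marrow 8 of the 18 C3ar1 UMIs came from 1 cell. After thinning, 55.1% of tumor tissue cells had a C3ar1 UMI (64.2% unthinned), against 0.292% of tumor-bearing blood cells (1.13% unthinned) and at most 1.38% in the other libraries (5.26% unthinned). Between tumor-bearing and naive libraries C3ar1 stayed under the minimum of 20 CPM, so no difference was called. The counts were 4 UMIs in tumor-bearing against 31 in naive blood, a ratio of 0.279 (0.0715 to 0.789), 3 against 18 in bone marrow, at 0.416 (0.0784 to 1.42), and 9 against 8 in spleen, at 0.865 (0.296 to 2.58).

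C5ar1, the receptor for C5a, was present in every library and also far higher in the tumor. It stood at 391 CPM in tumor tissue, against 50.8 and 30.1 CPM in tumor-bearing and naive blood, 29.1 and 37.0 CPM in tumor-bearing and naive bone marrow, and 38.8 and 21.9 CPM in tumor-bearing and naive spleen. Tumor tissue exceeded tumor-bearing blood 7.69-fold (6.74 to 8.80), tumor-bearing spleen 10.1-fold (8.82 to 11.6) and tumor-bearing bone marrow 13.4-fold (8.48 to 22.6). Below tumor tissue, tumor-bearing blood was the only library set apart from its neighbours in the order by its interval. Thinned cells with a C5ar1 UMI made up 65.7% of tumor tissue, against 5.36% to 16.6% of the other libraries. The second C5a receptor, C5ar2, had 474 UMIs in all cells, and stood at 14.6 CPM in tumor tissue against 4.54 to 9.06 CPM elsewhere, too low to count as measured by the rule above.

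Properdin, the stabiliser of the alternative pathway enzyme, was detected in most tumor tissue cells. Cfp stood at 407 CPM in tumor tissue, against 110 and 93.7 CPM in tumor-bearing and naive blood, 214 and 123 CPM in tumor-bearing and naive bone marrow, and 93.9 and 85.9 CPM in tumor-bearing and naive spleen. It was 3.70-fold (3.38 to 4.06) above tumor-bearing blood and 4.34-fold (3.98 to 4.74) above tumor-bearing spleen. Against tumor-bearing bone marrow the fold was 1.91 (1.60 to 2.28), just under the threshold. Of thinned cells, 74.2% had a Cfp UMI in tumor tissue, against 26.2% to 44.6% elsewhere.

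Factor B, the protease of the same enzyme, stood at 174 CPM in tumor tissue, against 46.6 and 24.8 CPM in tumor-bearing and naive blood, 90.6 and 27.9 CPM in tumor-bearing and naive bone marrow, and 30.4 and 15.8 CPM in tumor-bearing and naive spleen. In each tissue taken from both kinds of mice, Cfb was higher in the tumor-bearing library, and the intervals of the pair did not overlap. Tumor tissue was 3.73-fold (3.24 to 4.30) above tumor-bearing blood and 5.71-fold (4.91 to 6.69) above tumor-bearing spleen. Its 1.92-fold excess over tumor-bearing bone marrow (1.47 to 2.54) missed the threshold. Among thinned cells, 36.0% had a Cfb UMI in tumor tissue and 6.44% to 17.9% elsewhere.

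C3 ran the other way. It stood at 176 CPM in tumor tissue, against 314 and 272 CPM in tumor-bearing and naive blood, 510 and 439 CPM in tumor-bearing and naive bone marrow, and 351 and 342 CPM in tumor-bearing and naive spleen. Bone marrow was highest, and tumor tissue lay below all other libraries with no overlap of intervals. C3 was 2.89-fold lower (2.57 to 3.25) in tumor tissue than in tumor-bearing bone marrow. Against tumor-bearing spleen it was 1.99-fold lower (1.88 to 2.10) and against tumor-bearing blood 1.78-fold lower (1.67 to 1.89), both short of 2-fold. Thinned cells with a C3 UMI made up 49.7% of tumor tissue, against 69.0% to 83.9% of the other libraries. Neutrophil markers were also lower in tumor tissue. The 9 markers summed to 366 CPM there, with Ngp and Camp at 0, against 3957 CPM in tumor-bearing blood. Of 7 measured in that comparison, 7 were lower in the tumor. The marker sums and C3 ran in a similar order over the libraries. Both were lowest in tumor tissue, next lowest in naive blood (1472 CPM of markers) and highest in bone marrow. The order differed within bone marrow, where the markers summed to 8017 CPM (tumor-bearing) and 8885 CPM (naive) and C3 stood at 510 and 439 CPM. It also differed between tumor-bearing blood and naive spleen, with 3957 and 2845 CPM of markers and 314 and 342 CPM of C3. The C3 intervals overlapped in both pairs. The part of neutrophils in the C3 difference was not tested. C3 stood at 432 CPM in the neutrophil-like cluster 12 and at 461 CPM in cluster 0, which was led by Mmp8, Camp and F13a1.

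**Figure D1:**
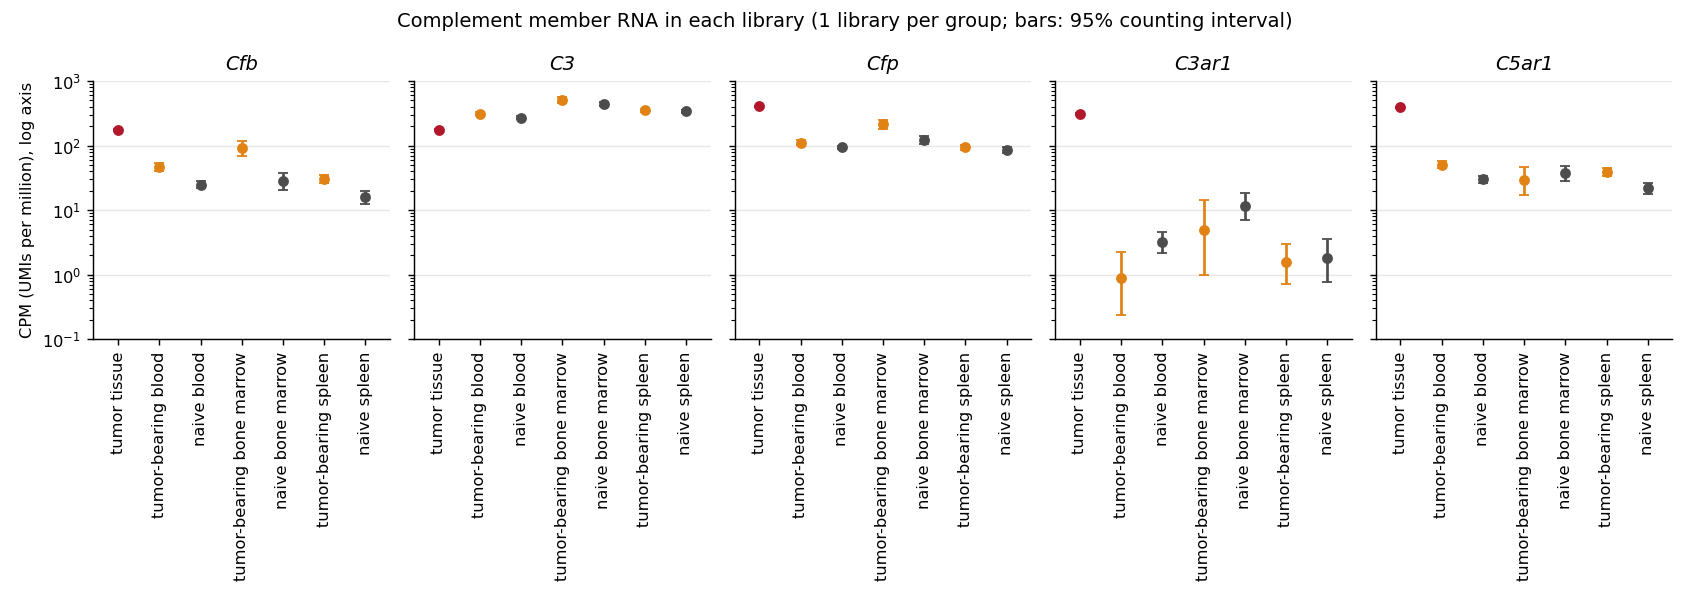
Level of each member in the 7 libraries (CPM, log axis), with bars for the 95% counting interval. Tumor tissue (red) is the highest point for Cfb, Cfp, C3ar1 and C5ar1 and the lowest for C3, and C3ar1 lies below 12 CPM in every other library.

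The 9 clusters made almost wholly of tumor tissue cells, as the authors had numbered them, differed in which members they carried. Since the clusters were built from these cells' RNA, differences between them are description, with no test. Cluster 8, led by the chemokine genes Ccl7, Ccl12 and Ccl2, combined high levels of 4 members, with Cfb at 345 CPM, Cfp at 418 CPM, C3ar1 at 503 CPM and C5ar1 at 504 CPM. C3ar1 and Cfb stood at ranks 9 and 10 among the genes that lead this cluster. It held 13.5% of tumor tissue cells and 14.9% of their UMIs, but 29.6% of their Cfb and 24.1% of their C3ar1 molecules.

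Factor B was highest in cells with interferon-induced leading genes. Cfb reached 376 CPM in cluster 10, led by Rsad2, Cxcl10 and Ifit1, an interval that overlapped that of cluster 8, and 218 CPM in cluster 5, led by Cxcl9. It was lowest in cluster 9, at 28.5 CPM, a 13.2-fold range over the 9 clusters. Cluster 10 carried 17.9% of tumor tissue Cfb in 10.3% of the cells. Outside the tumor the same held for the interferon-gene cluster 16, led by Ifit3b, Ifit3 and Ifit1: its 35 naive blood cells had 164 CPM of Cfb, and 68.6% of them had a Cfb UMI. All other units of 1 cluster in 1 library outside tumor tissue lay between 5.18 and 88.1 CPM.

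C3ar1 and C5ar1 were both high in clusters 3, 8 and 11. C3ar1 stood at 361, 503 and 478 CPM there, and C5ar1 at 543, 504 and 455 CPM. Cluster 3 was led by Spp1 and Arg1, and cluster 11 was macrophage-like, with C1qa, C1qc, C1qb, Folr2 and Mrc1 among its 10 leading genes. In cluster 7, led by Thbs1, Slpi and Ptgs2, C5ar1 was at 398 CPM and C3ar1 at 134 CPM. Clusters 9 and 17 carried little of either: C3ar1 stood at 19.4 and 58.9 CPM, and C5ar1 at 90.7 and 55.6 CPM. Over the 9 clusters C3ar1 had a 27.1-fold range and C5ar1 a 9.76-fold range. Cluster 13, at 525 CPM of C3ar1 and 450 CPM of C5ar1, held 40 cells with a median of 1477.5 UMIs, so its intervals were wide (365 to 730 CPM for C3ar1). It was led by Col3a1. Carcinoma or stromal markers summed to 300 CPM in it, beside 7391 CPM of macrophage markers.

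The macrophage-like cluster 11 held more of the C3ar1 molecules than of all UMIs, while its share of C5ar1 was nearer to its share of UMIs. It made up 6.99% of tumor tissue cells but 20.4% of all UMIs, and its cells had a median of 29673 UMIs. It held 31.4% of C3ar1 UMIs and 23.7% of C5ar1 UMIs. Cluster 3 held more of the C5ar1, 29.2% with 21.0% of all UMIs. The 7 macrophage markers summed to 5756 CPM in tumor tissue, against 1668 CPM in tumor-bearing blood, and 5 of 7 were higher in the tumor. Without cluster 11, tumor tissue still exceeded tumor-bearing blood 302-fold for C3ar1 and 7.36-fold for C5ar1, while C3 was at 0.640 of the blood level in place of 0.562.

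Cfp and C3 divided the tumor clusters differently. Cfp was the most even member, between 330 and 504 CPM in 8 of the 9 clusters and at 179 CPM in cluster 9. Its highest value was in cluster 17, led by Klrd1 and H2-Eb1, where C3 was lowest at 36.0 CPM. C3 was highest in cluster 9 (337 CPM), with Dmkn and Nfil3 among its leading genes, then in clusters 5 (294 CPM), 10 (274 CPM) and 7 (234 CPM). It stood at 80.1 CPM in the macrophage-like cluster 11 and at 101 CPM in cluster 3. The intervals of clusters 9, 5, 10 and 7 each overlapped the next in that order. Cluster 9 thus paired the most C3 with the least Cfb, Cfp and C3ar1. It held 16.1% of tumor tissue C3 in 10.3% of the cells, but 0.526% of the C3ar1.

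**Figure D2:**
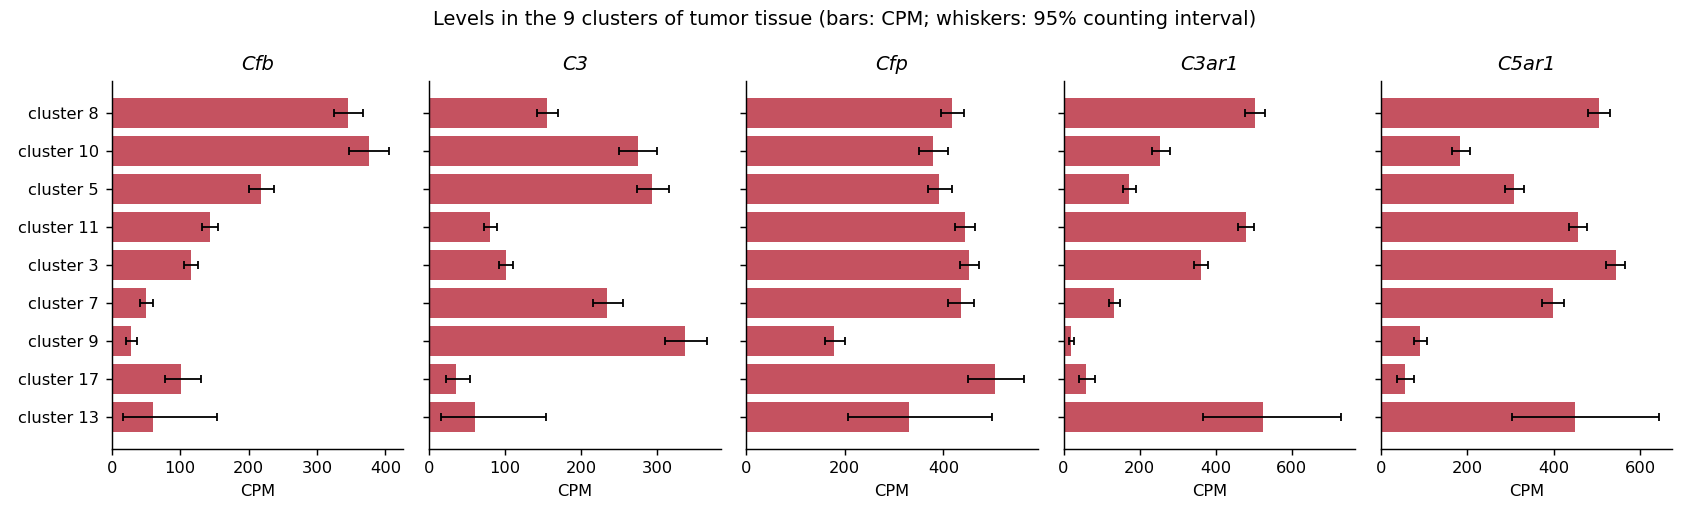
Level of each member (CPM) in the 9 clusters of tumor tissue, with whiskers for the 95% counting interval. Cfb peaks in clusters 10 and 8, both receptors in clusters 3, 8 and 11, and C3 is highest in cluster 9, where the other members are low.

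Single cells varied within the tumor as well. Among the 1727 tumor tissue cells thinned to 5000 UMIs, the 173 cells with the most Cfb held 57.0% of its molecules, and up to 30 UMIs in 1 cell. The same share was 41.9% for C3, 40.9% for C3ar1, 34.9% for C5ar1 and 30.8% for Cfp. A cell had a median of 2 Cfp, 1 C3ar1 and 1 C5ar1 UMIs, and 0 for both Cfb and C3. Of these cells, 765 had both receptors, 186 had C3ar1 alone, 369 had C5ar1 alone and 407 had neither.

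C3ar1 was more frequent in tumor cells that also had C5ar1, and the gap was smaller inside every cluster but 17 than over all of them. A C3ar1 UMI was present in 67.5% of cells with a C5ar1 UMI, against 31.4% of cells without one. Within cluster 3 the shares were 77.3% and 61.7%, within cluster 10 61.8% and 37.1%, and within cluster 8 91.2% and 85.0%. Within cluster 9 they were 8.70% and 9.03%, nearly equal. C3 had the opposite relation to C3ar1, with a C3 UMI in 42.0% of cells with C3ar1, against 59.1% of cells without it. Within clusters that gap held in some and not in others: the shares were 28.8% and 43.8% in cluster 3, but 66.3% and 65.3% in cluster 10 and 26.8% and 18.2% in cluster 11. Over all clusters together, 36.7% of cells with a C3 UMI had Cfb, against 35.3% of cells without. Within 6 of 8 clusters Cfb was more frequent in the cells with C3, at 70.5% against 60.0% in cluster 8, 60.5% against 51.6% in cluster 10 and 55.9% against 41.0% in cluster 11.

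**Figure D3:**
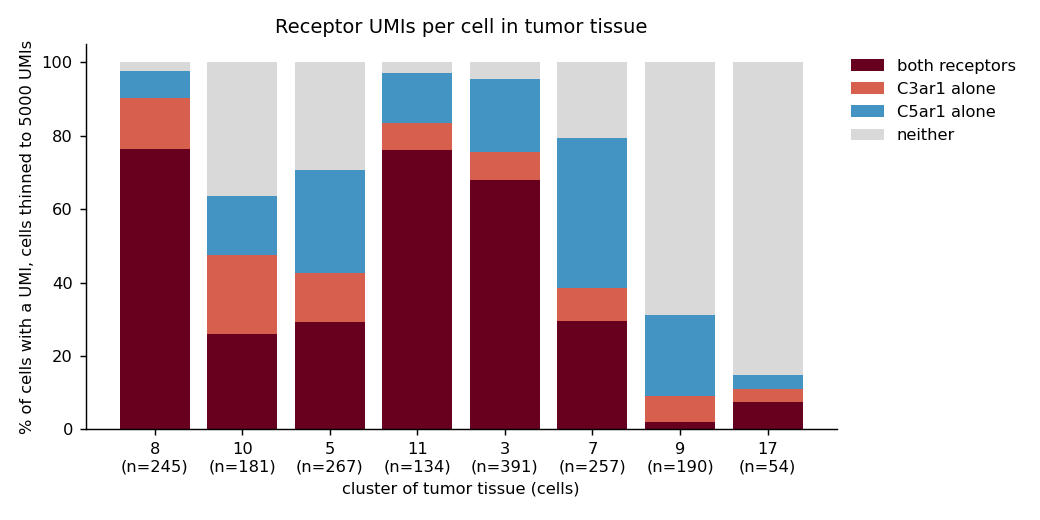
Share of thinned tumor tissue cells (5000 UMIs each) with both receptors, C3ar1 alone, C5ar1 alone or neither, in 8 clusters; n is the number of cells. Clusters 8, 11 and 3 are mostly cells with both RNAs, cluster 7 has many with C5ar1 alone, and most cells of clusters 9 and 17 have neither.

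Free RNA in droplets can give a cell UMIs of a gene it does not express, and no cell type certain to lack these genes was present in number. The lowest shares in tumor tissue, leaving out the shallow cluster 13, hold free RNA and the cells' own RNA together, so they do not measure free RNA alone. Unthinned, they were 12.6% for C3ar1 (cluster 9, median of 8782 UMIs), and 14.5% for C5ar1 and 18.2% for C3 (cluster 17, median of 10695 UMIs). For Cfb and Cfp they were 15.7% and 62.1%, both in cluster 9. No C3ar1 UMI was found in the 83 cells of the neutrophil-like cluster 12, which allows a share of up to 3.61% of cells with a UMI, taking 3 cells of the 83 as the floor. Only 1 of those cells came from tumor tissue, so they cannot show how much free C3ar1 RNA its droplets held. With cells thinned, the C3ar1 share was 90.2% in cluster 8 and 8.95% in cluster 9, and the C5ar1 share 88.0% in cluster 3 and 11.1% in cluster 17. How much of any share was free RNA was not tested.

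The surface protein of 1 member could be read directly, since CD88 was among the 47 antibodies. CD88 tags made up 135 per 10000 antibody tags in tumor tissue, against 65.3 and 67.8 in tumor-bearing and naive blood, 69.9 and 67.1 in tumor-bearing and naive bone marrow, and 81.8 and 76.6 in tumor-bearing and naive spleen. Tumor tissue was above every other library, by a ratio of 2.06 to tumor-bearing blood (2.03 to 2.10), 1.65 to spleen and 1.93 to bone marrow. These ranked 3, 4 and 5 from the top of the 47 antibodies' ratios, whose medians were 1.47, 1.08 and 1.35. Between tumor-bearing and naive libraries the CD88 ratio was 0.964 in blood, 1.04 in bone marrow and 1.07 in spleen. These ranked 36, 37 and 40 of the 47, below medians of 1.01, 1.10 and 1.16. The median cell of tumor tissue had 1602 antibody tags, against 6045 for blood of tumor-bearing mice, so a share can move with the total.

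Over the 9 tumor clusters, CD88 protein was highest in clusters high in C5ar1 RNA, but cluster 7 departed from this. It had 398 CPM of C5ar1 RNA and 100 CD88 tags per 10000. Clusters 5 and 10 had less C5ar1 RNA (308 and 184 CPM) and 109 tags each. CD88 stood at 149 tags per 10000 in cluster 3, 155 in cluster 8 and 153 in cluster 11, against 83.6 in cluster 9 and 94.0 in cluster 17. Pearson's r of the log2 values was 0.81 over the 9 clusters, which come from 1 library and share its staining. Cluster 13 was among them, with a median of only 106 antibody tags per cell. CD18, the partner chain of CD11b, gave 0.57 with C5ar1 RNA. Like CD88, CD18 was higher in tumor tissue than in tumor-bearing blood (142 and 69.1 tags per 10000), while its RNA Itgb2 was at 511 CPM in the tumor, against 587 CPM in that blood. The neutrophil-like cluster 12 had more C5ar1 RNA than any other cluster outside the tumor, at 155 CPM, and 71.3 CD88 tags per 10000, within the 63.9 to 73.2 of clusters 0, 1, 2, 4, 6 and 16.

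**Figure D4:**
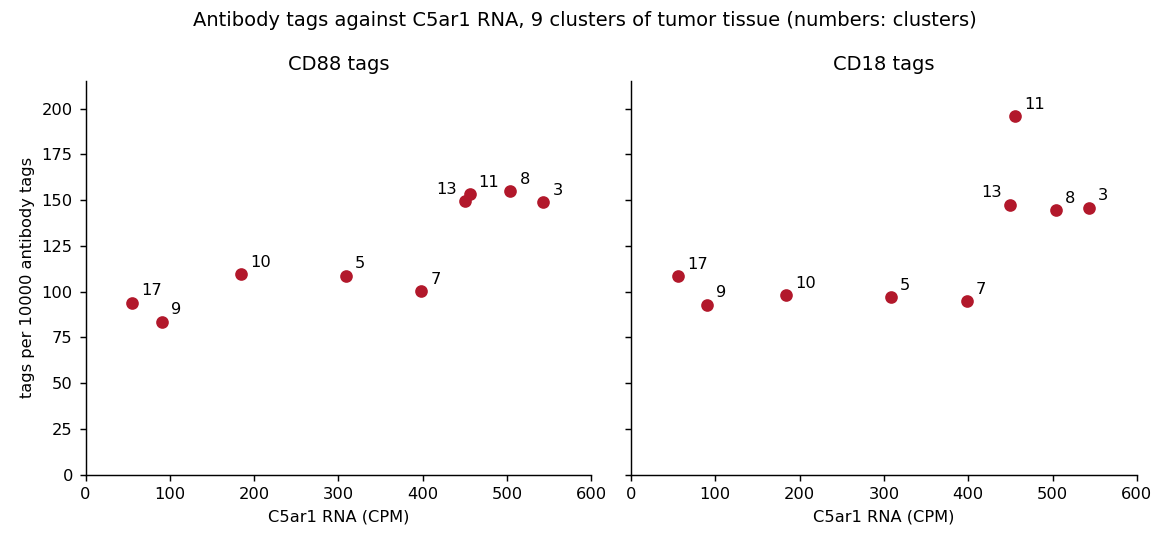
CD88 tags (left) and CD18 tags (right) per 10000 antibody tags against C5ar1 RNA (CPM) in the 9 clusters of tumor tissue, numbered as deposited. Clusters 3, 8, 11 and 13 lie at 149 to 155 CD88 tags and above 440 CPM, and clusters 9 and 17 at 83.6 and 94.0 tags and below 100 CPM. Cluster 7 lies at 100 tags and 398 CPM. Cluster 13 rests on 40 cells, with 312 CD88 tags together.

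Between tumor-bearing and naive mice the members moved less. In blood none of the 4 measured members reached 2-fold, where 0.566% of 5300 genes were higher and 0.132% lower. In bone marrow 1 of 4, Cfb, was higher, against 1.34% of 5505 genes higher and 1.89% lower (65 and 148 genes, in place of 74 and 104, with mitochondrial, ribosomal-protein and haemoglobin genes left out of the total). In spleen none of 4 reached it, where 0.332% of 5426 genes were higher and 0.0553% lower. C3ar1 was measured in none of the 3.

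The 2 members closest to the threshold in blood and spleen were Cfb and C5ar1. Cfb was 1.88-fold higher in tumor-bearing than in naive blood (1.56 to 2.28) and 1.92-fold higher in spleen (1.45 to 2.57). C5ar1 was 1.69-fold higher in blood (1.42 to 2.02) and 1.77-fold higher in spleen (1.39 to 2.27), and in bone marrow its ratio was 0.788 (0.436 to 1.36). Both were thus higher with a tumor in blood and spleen, while the interval for C5ar1 in bone marrow spanned 1. Cfp was at 1.18 in blood (1.05 to 1.31), 1.73 in bone marrow (1.38 to 2.17) and 1.09 in spleen (0.956 to 1.25). C3 was within 1.16-fold in all 3 tissues, at 1.15 (1.08 to 1.23) in blood, 1.16 (1.01 to 1.33) in bone marrow and 1.03 (0.959 to 1.10) in spleen. Neutrophil markers summed to 3957 CPM in tumor-bearing and 1472 CPM in naive blood, and 6 of 7 measured were higher. In spleen they summed to 4785 CPM in the tumor-bearing and 2845 CPM in the naive library, and 2 of 8 measured were higher. Without the neutrophil-like cluster 12 the blood ratios were 1.87 for Cfb and 1.60 for C5ar1, and the spleen ratios 1.90 and 1.71.

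Within single clusters the Cfb ratios of the 2 bloods were above the 1.88 of all cells, but 1.88 lay inside each cluster's interval. Among the 4 clusters that reached the minimum, Cfb was higher in tumor-bearing blood by 3.07-fold in cluster 1 (1.82 to 5.25) and 2.03-fold in cluster 2 (1.43 to 2.88). It was 2.83-fold higher in cluster 4 (1.52 to 5.39) and 2.20-fold higher in cluster 6 (1.35 to 3.56). Clusters 1 and 4 reached 20 CPM only in tumor-bearing blood (40.9 against 13.3 CPM and 32.7 against 11.5 CPM), so the minimum favoured a higher value there. Cluster 0 stayed under 20 CPM (15.6 against 5.18 CPM), at 3.02-fold (1.40 to 6.77). How many of all genes passed 2-fold within clusters 1, 2, 4 and 6 was not counted. Cluster 2 was led by genes that include the interferon-gamma-induced Gbp5 and Ifi47, and cluster 4 was non-classical-monocyte-like. Cluster 16, the richest in Cfb outside the tumor, supplied 5 cells to tumor-bearing and 35 to naive blood. In spleen Cfb was 1.69-fold higher in cluster 1 (0.918 to 3.24) and 1.97-fold higher in cluster 2 (1.27 to 3.15).

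The Cfb difference in bone marrow rested on few molecules. There were 56 Cfb UMIs in 57 tumor-bearing cells, 17 of them in 1 cell, against 43 in 153 naive cells. The ratio was 3.25 (2.14 to 4.95), 2.56 with the top cell of each library left out, and 0.711 (0.202 to 2.06) within cluster 0, the only cluster with 20 cells in both. At a minimum of 100 UMIs the gene was not measured.

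C5ar1 varied by cluster. In blood it was 3.80-fold higher in tumor-bearing cells of cluster 6 (1.79 to 8.25) and 2.12-fold higher in cluster 0 (1.37 to 3.30), against 0.892 in cluster 1 (0.585 to 1.33). In spleen it was 3.14-fold higher in cluster 0 (1.66 to 6.35), with 1.11 to 1.83 in clusters 1, 2 and 4. Cfp was 1.58-fold higher in cluster 0 of blood (1.33 to 1.87) and 1.72-fold higher in cluster 0 of bone marrow (1.33 to 2.22), and ran from 0.769 to 1.34 in the other clusters of blood and spleen. For C3 all 11 values within clusters lay between 0.800 and 1.23.

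**Figure D5:**
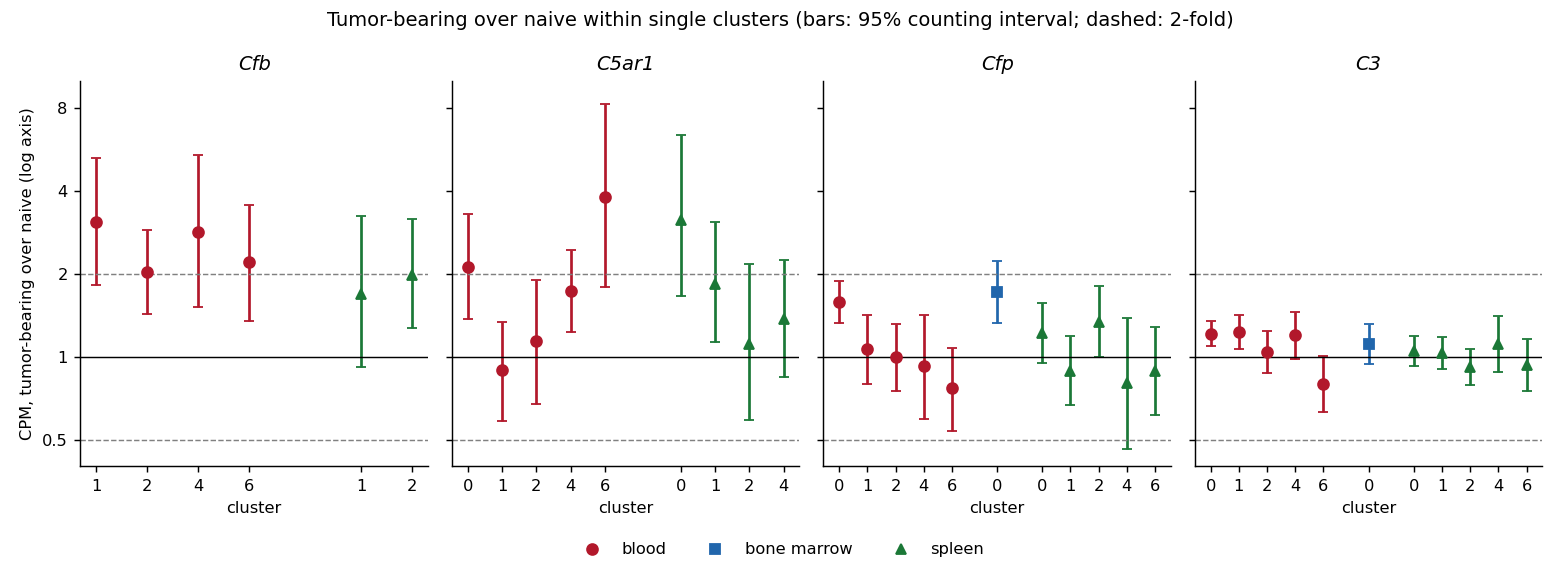
Ratio of CPM in tumor-bearing over naive libraries within single clusters (log axis), with bars for the 95% counting interval and dashed lines at 2-fold. Only clusters that reach the minimum are shown. The 4 Cfb values in blood lie between 2.03 and 3.07, C5ar1 spreads from 0.892 to 3.80, and C3 stays between 0.800 and 1.23.

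Among naive tissues, both compared with the same blood library, no measured member differed by 2-fold. In bone marrow over blood 0.718% of 5433 genes were higher and 1.58% lower, and in spleen over blood 0.149% of 5367 genes were higher and 0.13% lower. The ratios of naive bone marrow to naive blood were 1.62 for C3, 1.32 for Cfp, 1.23 for C5ar1 and 1.13 for Cfb. Those of naive spleen to naive blood were 1.26, 0.917, 0.729 and 0.639. In cluster 0 alone the Cfb ratios were 3.67 for bone marrow and 1.51 for spleen, where naive blood cells had 5.18 CPM of Cfb. The highest C3 and Cfp outside the tumor were both in cluster 0 of tumor-bearing bone marrow, at 579 and 303 CPM. Over the 25 units of 1 cluster in 1 library outside tumor tissue, C3 and Cfp had a Pearson's r of 0.77, against −0.51 over the 9 tumor clusters. The units share libraries and depth, so the r is a description.

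For each member, the genes with the most similar pattern were taken over 34 units of 1 cluster in 1 library, by Pearson's r of log2(CPM + 10) among 6527 genes. C3ar1 was closest to Mmp14, Cttnbp2nl, Spp1, Emp1 and Arg1 (r of 0.96 to 0.98), and C5ar1 to Ell2, Clec4d, Plk3, Zfand2a and Ets2 (0.90 to 0.95). Cfb was closest to Scimp, Fcgr1, Oasl1, Isg15 and Cxcl10 (0.91 to 0.92), of which Isg15, Oasl1 and Cxcl10 are interferon-induced. C3 was closest to Mgst1, Hp, Cd177, Gstm1 and Chil3 (0.92 to 0.95), which include genes known from neutrophils and monocytes. Cfp was closest to Lgals1, Lilrb4a, Prelid1, Clec5a and Tlr2 (0.90 to 0.94). The closest genes depended on the units: within the 9 tumor clusters alone, 1, 3, 0, 0 and 1 of the 5 genes stayed among the closest to Cfb, C3, Cfp, C3ar1 and C5ar1. C3ar1 and C5ar1 had an r of 0.83 over all 34 units, 0.84 over the tumor clusters and −0.26 over the 25 others. In those 25 units C3ar1 had at most 14 UMIs each, 8 of the 14 in 1 cell, so that last value rests on very few molecules.

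Of 48 further complement genes listed, 12 were measured in each comparison with tumor tissue. Against tumor-bearing blood 5 were higher and 1 lower, with a median log2 ratio of 0.51 beside −0.13 for all measured genes. Against tumor-bearing spleen 3 were higher and 1 lower (0.50 beside −0.15), and against tumor-bearing bone marrow 6 were higher and 1 lower (0.96 beside −0.17). The C1q chains, which start the classical pathway, stood out: C1qa was at 979 CPM in tumor tissue against 4.42 CPM in tumor-bearing blood, C1qb at 1208 against 23.4 CPM, and C1qc at 623 against 9.28 CPM. Against tumor-bearing spleen they were 39.9-fold (C1qa), 41.6-fold (C1qb) and 32.9-fold (C1qc) higher. These chains are also on the macrophage marker list. In tumor-bearing bone marrow C1qa had 1 UMI, C1qb was at 3.24 CPM and C1qc at 0, a difference of at least 128-fold for C1qc with 3 UMIs as the floor of that library.

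Of 7 other receptors for complement proteins that were measured, 2 passed 2-fold against tumor-bearing blood, 3 against tumor-bearing bone marrow and 0 against tumor-bearing spleen, where Itgam was at 1.92 and Cd93 at 1.62. Cd93, a receptor once linked to C1q, was 2.66-fold higher in tumor tissue than in tumor-bearing blood and 4.12-fold higher than in bone marrow. Itgam, a chain of complement receptor CR3, was 2.10-fold and 2.13-fold higher against the same libraries. Itgax, of CR4, was at 30.5 CPM in tumor tissue against 1.62 CPM in bone marrow (1 UMI), a ratio of 18.9 (3.37 to 746).

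Between tumor-bearing and naive mice, 0 of 9 further complement genes measured in blood and 0 of 8 in bone marrow passed 2-fold, with medians of 0.07 beside 0.01 and 0.02 beside 0.04. In spleen 2 of 10 were higher (0.13 beside 0.02): C1qa stood at 24.5 CPM in tumor-bearing against 2.04 CPM in naive spleen (interval of the ratio 6.17 to 26.9), and C1qb was 6.42-fold higher (4.03 to 10.8). Without the top cell of each library the ratios were 6.54 and 3.93. None of 8 passed between naive bone marrow and blood (−0.18 beside 0.01) or between naive spleen and blood (0.03 beside 0.01). Where none passed, the genes with the most UMIs were Itgb2, Calr and Itgam, with ratios of 1.05, 0.926 and 1.04 in tumor-bearing over naive blood. Upstream and downstream partners of the members were nearly absent: Hc, which encodes C5, had 3 UMIs in all cells, Cfd, the protease that activates factor B, had 1, and Cfi, which inactivates cleaved C3, had 0.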

How the data were processed

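Single-cell RNA and antibody tag counts of 7 libraries were used, and the labels' tissue and disease state made each a group of its own. The authors deposited whole-number UMI counts per gene and cell and tag counts per antibody and cell, with a table of each cell's library, cluster and mitochondrial fraction, which per the file headers is a share of that cell's UMIs. Per the submitters' processing notes, Cell Ranger was used with mm10. No version, annotation or cell filter is given in the sources used here. The table listed 4527 cells, of which 237, with all cells of clusters 14, 15 and 18, had no counts and were left out. No filter was added (smallest cell 854 UMIs, highest mitochondrial share 9.86%). No doublet caller was run, and the alternative dropped the top 2% of each library's cells by UMIs.

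Counts were summed per library and cluster and divided by total UMIs to give CPM. Antibody tags were summed per 10000 tags. Cells were also thinned to 5000 UMIs with a fixed seed. With 1 library per group there is no test. The 5 members were named in every comparison, of further complement genes those past 2-fold or, with none, the 3 with the most UMIs, and for likeness the 5 closest genes with at least 500 UMIs over units of at least 20 cells, leaving out mitochondrial, ribosomal-protein, haemoglobin, immunoglobulin and Y-linked genes and unnamed gene models. A cluster was called like a cell type with at least 3 of that type's markers among its 10 leading genes. The members, lists and rules were chosen with earlier results of these data known. Some genes that these rules name are not reported here. Promoter windows came from RefSeq. The steps were checked on simulated data. Python 3.11.15, numpy 2.4.6, scipy 1.17.1, pandas 2.3.3 and matplotlib 3.10.9 were used.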

Additional observations from a re-analysis of the deposited data

How the results depend on the processing

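Scaling, depth, weighting of cells, single cells, filters and cluster mix were varied one at a time. Of 344 alternative values of a member's fold, 305 stayed within their counting interval, 38 left it and 1 turned the direction of a difference past 2-fold: Cfb in tumor-bearing over naive bone marrow, at 0.711 in cluster 0 alone. Ratios that were not called also crossed 1: C5ar1 in tumor-bearing over naive bone marrow (0.398 to 1.28), C3ar1 in tumor-bearing over naive spleen (0.598 to 1.85) and bone marrow (0 to 1.07), Cfb, C5ar1 and C3ar1 in naive bone marrow over naive blood (0.994 to 3.67, 0.922 to 1.24 and 0.653 to 3.84), and Cfb in naive spleen over naive blood (0.591 to 1.51). The number of members past 2-fold was 4 under every setting for tumor tissue over tumor-bearing blood, 4 to 5 over tumor-bearing spleen, and 0 for naive spleen over naive blood. Over tumor-bearing bone marrow it was 3, and 5 with size factors, with mean CPM per cell or without the top cell of each gene. For tumor-bearing over naive blood it was 0, and 1 with no minimum, equal mixes of clusters or cluster 0 alone. In bone marrow it was 1, and 2 with thinned cells or no minimum and 0 with at least 100 UMIs or cluster 0 alone. In spleen it was 0, and 1 with mean CPM per cell, without the top cell or in cluster 0 alone. For naive bone marrow over naive blood it was 0, and 1 with no minimum. With no minimum the further complement genes past 2-fold in tumor tissue numbered 23 against blood, 19 against spleen and 23 against bone marrow of tumor-bearing mice, in place of 6, 4 and 7. Counts over all genes rise without a minimum too. In tumor-bearing over naive blood they were 1186 higher and 1311 lower, in place of 30 and 7. In bone marrow they were 1124 and 1968, in place of 74 and 104. In cluster 0 alone they were 58 and 37 in blood and 74 and 122 in bone marrow. Of the 5 genes closest to each member, Spearman's rho kept 3 for Cfb, 3 for C3, 5 for Cfp, 0 for C3ar1 and 1 for C5ar1. The causes of these changes were not tested. No paired analysis was possible because each group is 1 library and no result comes from a test. Depth limits C3ar1 outside tumor tissue most, at 3 to 31 UMIs per library.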

Other observations

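Other cell types' markers ranged widely between the libraries. Classical monocyte markers summed to 5155 CPM in tumor tissue, against 7370 to 9037 CPM in the other libraries. Non-classical monocyte markers summed to 660.5 CPM in tumor tissue and 1189 CPM in tumor-bearing blood, where 6 of 7 measured were lower in the tumor. Dendritic cell markers summed to 762 CPM in tumor tissue and 447 CPM in tumor-bearing blood. Platelet markers summed to 286 CPM in tumor tissue and 5.97 CPM in tumor-bearing blood, and Pf4 was among the leading genes of the macrophage-like cluster 11. Red cell markers summed to 0.0480 CPM in tumor tissue and to 128 CPM at most, in naive bone marrow.

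Cr1l, which encodes the mouse membrane regulator Crry, stood at 42.9 CPM in tumor tissue, against 58.3 to 75.3 CPM elsewhere. Cd55 had 22 UMIs and Cd59a 19 UMIs in all cells. The opsonin receptor Vsig4 had 41 UMIs. The CD11b protein tag was at 0.874 of its tumor-bearing blood level in tumor tissue, and at 2.07 of its tumor-bearing spleen level.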
